A study of Mus musculus with 8 samples.

Results

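The comparison described here is input RNA, the total cellular message sequenced beside ribosome footprints, in Mettl5 knockout (KO) against wild-type (WT) B16 cells. Its members are all genes of the deposited table whose mean normalized read count over the 4 input libraries was at least 1, which were 10443 of the 10453 genes listed. It uses 4 of the 8 libraries of the series, 2 WT and 2 KO, and leaves the 4 footprint libraries out of the test. B16 is a mouse melanoma line that makes pigment, and the KO cells were made by CRISPR/Cas9 editing of Mettl5. All 4 libraries came from cells kept in DMEM with serum and antibiotics, exposed to cycloheximide, an inhibitor of elongation, then lysed in polysome buffer. The labels do not say whether the KO cells were 1 clone or several, nor whether the 2 libraries of a group came from separate cultures, so a p-value here covers only how far these libraries differ from one another, which may be technical spread. The labels give the input both as polyA RNA and as RNA from a ribosomal RNA depletion, and the sources used here do not settle which.

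METTL5 is the methyltransferase that places N6-methyladenosine on 18S rRNA, the RNA of the small ribosomal subunit. In ribosome profiling, input RNA is the measure of how much message a cell holds, which depends on transcription and on decay, and footprints measure how much of it is being translated. The series is titled for stress response genes. The account below turns instead to genes with many reads and to gene classes outside the stress response and ribosomal protein lists.

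Many genes differed by a little and few by much. With limma on log2(value + 1) and Benjamini-Hochberg adjustment over all genes, 3803 genes passed an adjusted p of 0.05, which is 36.4% of those tested, 1865 higher in KO (17.9%) and 1938 lower (18.6%). Among the 5811 well-covered genes, those with a mean normalized read count of at least 200, 1348 were called higher (23.2%) and 1493 lower (25.7%), and the median size of a called difference was 0.17 on the log2 scale. A difference of more than 1.5-fold was reached by 28 well-covered genes called higher (0.482%) and 7 called lower (0.12%). The median log2 fold change of all genes tested was 0.00. These counts depend on the spread a fit assumes: on the same libraries, DESeq2 on the recovered reads called 1723 genes, and limma without a trend of the spread with the level called 1276. Since RNA came from whole cultures, fewer cells expressing a gene and less RNA per cell cannot be told apart.

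The libraries held between 11927567 and 18823632 reads recovered from the normalized values, with 504 to 790 reads for the median gene of a library. Libraries of 1 group lay close together, with a median standard deviation (SD) of log2 values of 0.027 in WT and 0.026 in KO among well-covered genes. Levels are given below as normalized read counts of replicates 1 and 2, in that order, and are not corrected for gene length. Mettl5 had 114 and 111 in WT and 75.7 and 95.7 in KO. Both KO libraries lay below both WT libraries, and the log2 fold change was -0.40 ± 0.1 (SE), adjusted p = 0.00162. Without KO replicate 1 it was -0.23 and was no longer called, nor was it with DESeq2. Where in the gene the edit lies is not given in the sources used here. The count of its message is therefore no check of the edit. Of 15 markers of melanoma and pigment cells 14 were tested, among them Tyrp1, Pmel, Dct and Sox10, and 11 were called higher in KO and 1, Mitf, lower. That is 78.6% called higher, against 17.9% of all genes tested and 23.2% of well-covered genes. The median log2 fold change of these markers was 0.20. Of markers of other cell types, 1 of 10 for leukocytes, 2 of 12 for epithelium and endothelium and 6 of 11 for fibroblasts were tested, of which 1 was called higher and 1 lower.

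The longest run of neighbouring genes that differed together in KO input RNA was a segment of chromosome 8. The segment ran from Elmod2, a GTPase-activating protein for Arf-family GTPases, to Got2, the mitochondrial aspartate aminotransferase. Its 106 tested genes lay over 12.6 megabases (chr8:83312632-95888401, mm10), and all 106 had a log2 fold change above 0. Of these, 98 were called higher and 0 lower. Their median log2 fold change was 0.49, or 1.40-fold, and it ranged from 0.02 to 1.25. The other 469 genes tested on chromosome 8 had a median of 0.02, and 17.9% of them were called higher. The segment was found in these data as a stretch whose running median over 11 genes was at least 0.2, trimmed to its outermost called genes, so its direction and its count of calls are a description and not a test.

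**Figure D1:**
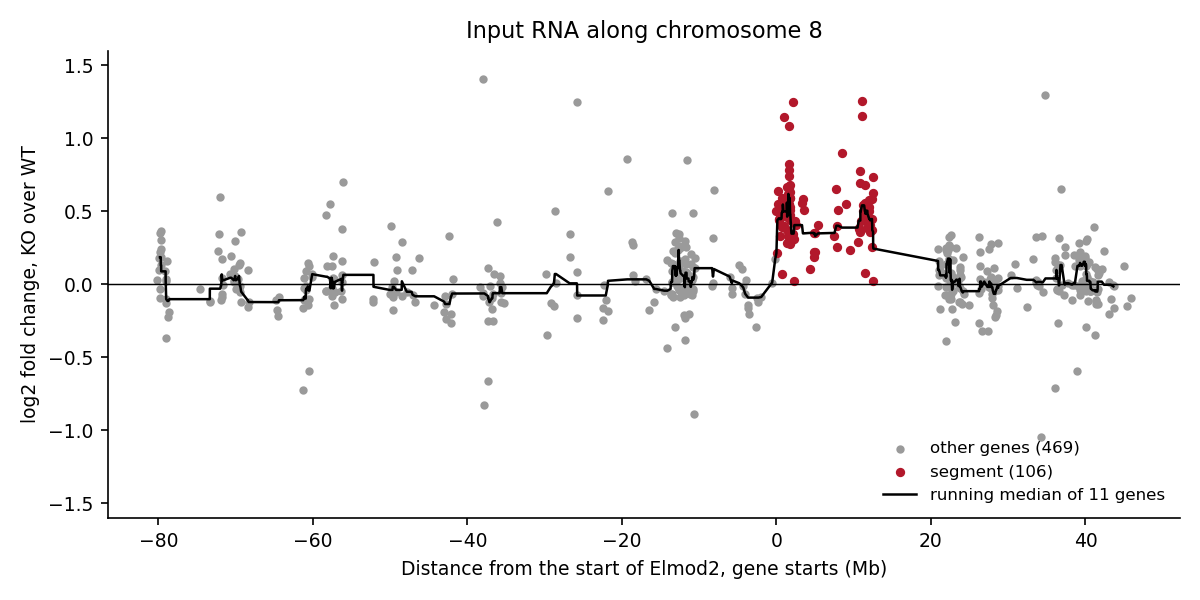
Log2 fold change of input RNA (KO over WT, vertical axis) of each gene tested on chromosome 8, placed by the distance of its start from that of Elmod2 in megabases (horizontal axis). Red points are the 106 genes of the segment, grey points the other 469 genes, and the black line is the running median of 11 genes. The red points lie above 0 over 12.6 megabases, while the running median elsewhere lies mostly near 0.

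The segment showed a similar median difference in every pairing of libraries, which are those it was found in and no separate support. The median log2 difference of its 106 genes was 0.48 for KO replicate 1 against either WT library, and 0.49 and 0.47 for KO replicate 2 against WT replicates 1 and 2. It was -0.0038 between the 2 WT libraries and 0.0001 between the 2 KO libraries. The higher level ran through nearly the whole segment, but its size varied. Among the segment's 80 well-covered genes the quartiles of the log2 fold change were 0.38 and 0.57, and 78 were called higher. The neighbours Heatr3, Papd5 and Adcy7 were called at only 0.19, 0.22 and 0.22. Neto2 and Samd1 were not called. Neto2, an auxiliary subunit of glutamate receptors of the kainate type, had 362 and 342 in WT and 369.9 and 345 in KO, and its groups overlapped. Samd1, a chromatin protein with a SAM domain, had 316 and 329.8 in WT and 338 and 342 in KO, with KO above WT by a log2 fold change of 0.07 that did not pass (adjusted p = 0.266).

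The edges of the segment were set by the running median and are not placed to single genes. Before Elmod2, the nearest tested gene was Tbc1d9, with few reads and a log2 fold change of 0.18 ± 0.15 (SE), close to the 0.21 of Scoc, the second gene inside. Zfp330, with a log2 fold change of 0.01, and Inpp4b, with -0.09, came next, and none of the 3 genes outside was called. Farther out, Smarca5, the ATPase of ISWI remodelling complexes, was lower in KO by a log2 fold change of -0.29. Past Got2 no gene was tested until Tk2, which starts at chr8:104226691 and had a log2 fold change of -0.01. The footprint libraries, which took no part in finding the segment, showed it too: the median log2 footprint difference, KO minus WT, was 0.41 over the 106 genes, above 0 in 97 of them, against 0.0019 over all other genes. DNA was not measured, so more RNA from each gene copy and more copies of the genes cannot be told apart here.

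The segment holds genes of varied roles. Got2, which links amino acids to the citric acid cycle, had 2838 and 2903 in WT and 4428 and 4435 in KO, and the KO libraries lay well above the WT libraries (log2 fold change 0.63 ± 0.019 (SE), adjusted p = 2.81e-26). Calr, the calcium-binding chaperone of the endoplasmic reticulum, had 9048 and 9028 in WT and 11235 and 11534 in KO. Its log2 fold change of 0.33 was below the median of the segment. Fto, an RNA demethylase that removes N6-methyladenosine from mRNA, had 813 and 859 in WT and 1196 and 1188 in KO, a log2 fold change of 0.51 ± 0.031 (SE), adjusted p = 1.36e-16. Nup93, a scaffold protein of the nuclear pore, and Tnpo2, an importin, had log2 fold changes of 0.44 and 0.44. Rbl2, the pocket protein p130 that holds cells out of the cycle, had 593 and 591 in WT and 910.2 and 955 in KO. In Rbl2 both KO libraries stood above both WT libraries, by a log2 fold change of 0.65 ± 0.035 (SE), adjusted p = 2.25e-18. Man2b1, a lysosomal mannosidase, Ndufb7, a subunit of respiratory complex I, and Cnot1, the scaffold of the CCR4-NOT deadenylase, had log2 fold changes of 0.51, 0.64 and 0.26.

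A few members of the segment rose by more than the rest of it. Gpt2, the mitochondrial alanine aminotransferase, had 196 and 205 in WT and 490.1 and 468 in KO, which is 2.38-fold (log2 fold change 1.25 ± 0.052 (SE), adjusted p = 9.75e-22). Herpud1, a membrane protein of endoplasmic reticulum-associated degradation, had 309 and 331 in WT and 725 and 701 in KO, a log2 fold change of 1.16 ± 0.043 (SE), adjusted p = 3.18e-23. These were the 2 well-covered genes of the segment with a log2 fold change over 1, and both belong to the stress response lists. Among genes of the segment with fewer reads, Cacna1a, the pore subunit of a neuronal calcium channel, had 77 and 65.2 in WT and 164 and 152 in KO, with a log2 fold change of 1.15 ± 0.093 (SE), adjusted p = 5.25e-13. Nlrc5, the transactivator of MHC class I genes, had 17.2 and 13.5 in WT and 40.5 and 35.2 in KO, and Irx3, a homeobox transcription factor, had 69.8 and 63.3 in WT and 121 and 128 in KO. Their log2 fold changes were 1.25 and 0.90, and in all 3 genes the KO libraries lay above the WT libraries.

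Mt1 and Mt2, the neighbouring genes of the metallothioneins that bind zinc and copper, lie inside the segment. Mt1 had 2196 and 2250.0 in WT and 3599.5 and 3594 in KO, a log2 fold change of 0.69 ± 0.02 (SE), adjusted p = 2.81e-26. Mt2 had 1100.1 and 1095 in WT and 1839 and 1924 in KO, a log2 fold change of 0.78 ± 0.027 (SE), adjusted p = 2.52e-24. In both genes the KO libraries lay far above the WT libraries, and the difference was larger than the segment's median of 0.49. Slc30a1, a zinc exporter on chromosome 1 that like the metallothioneins is a target of the metal-sensing factor MTF1, had 177 and 178 in WT and 152 and 163 in KO. That is a log2 fold change of -0.17, which did not pass (adjusted p = 0.0539) though it did under some alternatives, such as edgeR on the recovered reads. That both rose is not particular to the pair: all 106 genes of the segment were above 0 and 98 were called higher. Dnase2a, at 0.78, and Rnaseh2a, at 0.74, rose about as much. The promoters of the pair are shown as RefSeq gives them for GRCm38.p6, both on the plus strand. Each runs from 250 bases before to 50 after the start site that its promoter table uses. For Mt2 that site is the start of the gene, 94172618, and for Mt1 it is 94179089, inside the gene, which RefSeq starts at 94178883. Capitals mark the letters TGCACNC or TGCGCNC, the core of the metal response element, searched on both strands, where the minus strand reads GNGTGCA or GNGCGCA.
Mt1 (chr8:94178839-94179138): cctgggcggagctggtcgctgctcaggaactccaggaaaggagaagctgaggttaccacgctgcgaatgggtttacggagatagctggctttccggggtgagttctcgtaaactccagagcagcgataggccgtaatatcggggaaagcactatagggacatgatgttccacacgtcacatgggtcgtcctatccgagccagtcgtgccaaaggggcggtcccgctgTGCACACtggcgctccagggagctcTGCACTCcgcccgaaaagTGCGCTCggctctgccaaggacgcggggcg
Mt2 (chr8:94172368-94172667): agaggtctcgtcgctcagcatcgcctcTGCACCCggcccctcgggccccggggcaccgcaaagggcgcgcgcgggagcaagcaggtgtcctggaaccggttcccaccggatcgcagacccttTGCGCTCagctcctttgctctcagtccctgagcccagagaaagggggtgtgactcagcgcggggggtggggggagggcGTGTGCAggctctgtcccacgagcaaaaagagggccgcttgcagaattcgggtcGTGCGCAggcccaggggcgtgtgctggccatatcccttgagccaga
The core was found 3 times in the window of Mt1 and 4 times in that of Mt2. At least 1 match was found in 25.6% of 27025 promoters of the same length, at least 3 in 2.0% and at least 4 in 0.503%. A match is a run of letters and not a measured site, and a link between the matches and the levels was not tested.

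The segment weighed on the list of large increases. It held 1.02% of the genes tested and 5.25% of the genes called higher. Of the 28 well-covered genes called higher by more than 1.5-fold, 17 lay in it. Of the 15 largest increases among well-covered genes, by the rule for named genes, which leaves out the stress response, ribosomal, mitochondrially encoded, histone and predicted genes, 9 lay in it. Besides the metallothioneins these were Dnase2a, a lysosomal DNase, Rnaseh2a, the catalytic subunit of RNase H2, Slc38a7, a glutamine transporter of lysosomes, Coq9, needed for ubiquinone synthesis, Wdr83os, a small membrane protein of the endoplasmic reticulum, Nfix, a transcription factor, and Prdx2, a peroxiredoxin. Their log2 fold changes ran from 0.66 for Prdx2 to 0.78 for Dnase2a. Without the segment, 1270 of 5731 well-covered genes were called higher (22.2%) and 1493 lower (26.1%), and 11 genes were called higher by more than 1.5-fold (0.192%) against 7 lower (0.122%).

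The other 6 of these 15 increases lay outside the segment. Of the 15, Dnase2a, Id3, Nipal3 and Mtss1 had a WT mean below 200 and count as well-covered only through KO. Id3, a helix-loop-helix protein without a DNA-binding region that keeps other factors from DNA, had 124 and 116 in WT and 339 and 351 in KO. Both KO libraries stood far above both WT libraries (2.85-fold, log2 fold change 1.51 ± 0.064 (SE), adjusted p = 1.79e-21). Its relatives Id1, with 19.6 and 20.3 in WT and 48.1 and 47.3 in KO, and Id2, with 594 and 569 in WT and 792 and 827 in KO, were also called higher, by log2 fold changes of 1.22 and 0.48. Nr4a3, an orphan nuclear receptor and immediate early gene, had 223 and 214 in WT and 417 and 409.9 in KO, a log2 fold change of 0.92 ± 0.052 (SE), adjusted p = 2.09e-17. The related Nr4a1 and Nr4a2 had log2 fold changes of -0.06 and 0.23 that did not pass (adjusted p = 0.436 and 0.248), although Nr4a2 passed without WT replicate 1, at 0.45. Ppargc1a, the coactivator that drives mitochondrial biogenesis, had 198 and 225 in WT and 361 and 363 in KO, a log2 fold change of 0.77 ± 0.058 (SE), adjusted p = 4.8e-14.

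The remaining 3 of the 15 were Nipal3, Slc4a8 and Mtss1. Nipal3, of the NIPA family of magnesium transporters, had 165 and 163 in WT and 296 and 272 in KO (log2 fold change 0.79). Slc4a8, a sodium-driven bicarbonate exchanger, had 347 and 373 in WT and 579.6 and 615 in KO (0.73). Mtss1, which binds actin and bends membranes, had 189 and 174 in WT and 305 and 295 in KO (0.72). None of the 3 had overlapping groups. Smaller increases of well-covered genes outside the segment, listed after their values were seen, included Hapln1, which links hyaluronan to proteoglycans, at 0.57, and Chchd10, a mitochondrial protein of the intermembrane space, at 0.48.

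**Figure D2:**
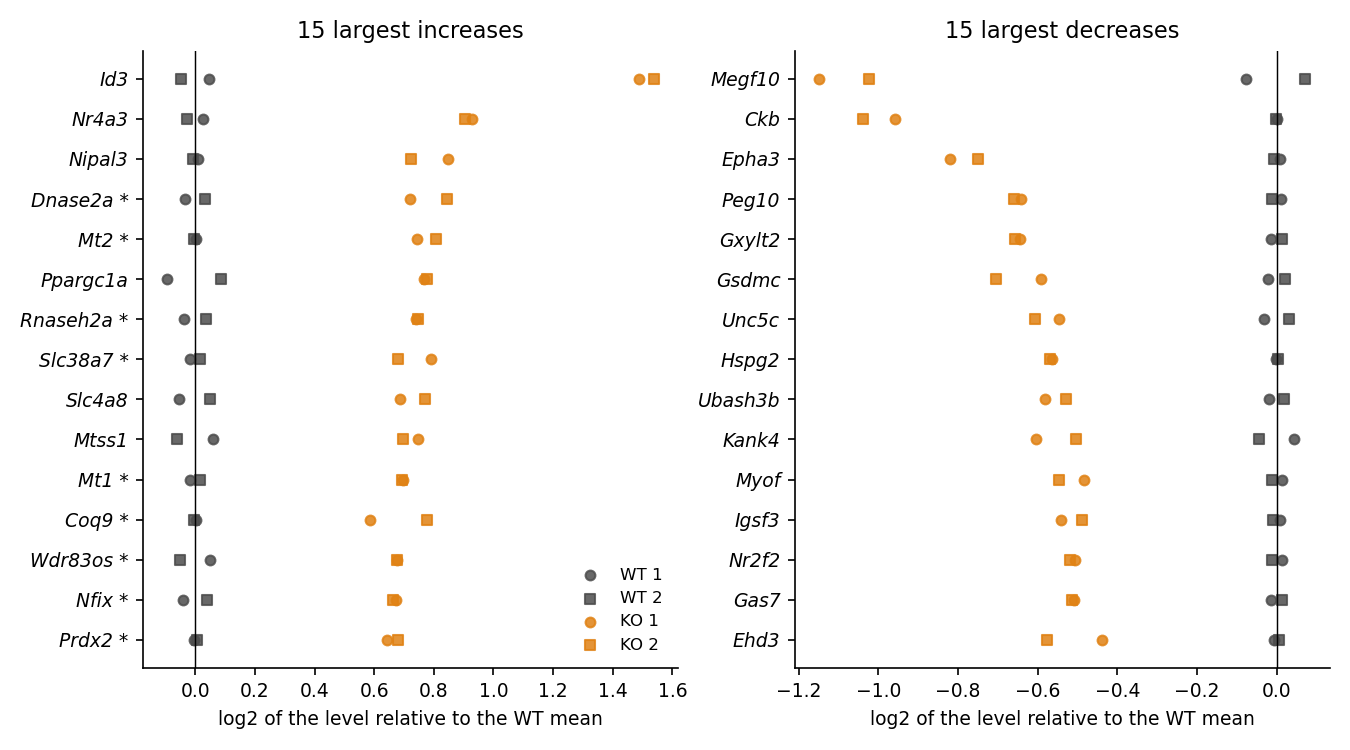
Input RNA of the 15 largest increases (left) and the 15 largest decreases (right) among well-covered genes called with non-overlapping groups, under the rule for named genes. The horizontal axis is the log2 of each library's normalized read count plus 1 over the WT mean plus 1, grey marks are WT and orange marks KO libraries, circles replicate 1 and squares replicate 2, and asterisks mark genes of the chromosome 8 segment. The distance between the groups exceeds that within them for each gene, and Id3 stands apart at about 1.5.

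The 15 largest decreases among well-covered genes, by the same rule, were of genes with varied roles. Of these, Megf10 and Gsdmc had a KO mean below 200 and count as well-covered only through WT. Megf10, a receptor for engulfing dead cells, had 310.0 and 344 in WT and 147 and 160.2 in KO, 2.12-fold lower (log2 fold change -1.08 ± 0.064 (SE), adjusted p = 5.99e-17). Ckb, the brain form of creatine kinase, had 844 and 843 in WT and 433 and 410.3 in KO, 2-fold lower (adjusted p = 6.7e-23). Epha3, a receptor for ephrins, had 1452 and 1437 in WT and 818 and 859 in KO, a log2 fold change of -0.78 ± 0.03 (SE), adjusted p = 5.09e-23. In each of these the KO libraries lay far below the WT libraries. Peg10, an imprinted gene derived from a retrotransposon, had 4011 and 3946 in WT and 2547 and 2519 in KO, and fell by 1.57-fold (log2 fold change -0.65 ± 0.02 (SE), adjusted p = 2.81e-26).

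Gsdmc, a pore-forming gasdermin, Unc5c, a netrin receptor, Hspg2, the basement membrane proteoglycan perlecan, and Myof, which mends membranes, had log2 fold changes of -0.65, -0.58, -0.57 and -0.51. Hspg2 had 3965 and 3979 in WT and 2685 and 2675 in KO, and libraries of 1 group differed by little. The remaining decreases, from -0.65 to -0.51, were Gxylt2, a xylosyltransferase acting on Notch, Ubash3b, a tyrosine phosphatase, Kank4, an ankyrin repeat protein, Igsf3, an immunoglobulin superfamily member, the nuclear receptor Nr2f2, Gas7, which binds actin, and Ehd3, which acts in endosomal recycling. None of the 15 decreases lay on chromosome 8. Of the 15 increases 13, and of the 15 decreases 12, were called in every alternative fit. Nipal3, Wdr83os, Ehd3, Gxylt2 and Nr2f2 were lost when all 8 libraries shared 1 estimate of the spread.

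The genes with the highest normalized read counts changed little. Eef1a1 and Eef2, the elongation factors of translation, had log2 fold changes of 0.19 and 0.14, Tyrp1, an enzyme of melanin synthesis, 0.20, Gpnmb, a glycoprotein of melanosomes and lysosomes, 0.14, and Eno1, an enolase of glycolysis, 0.09, all called higher. Eef1a1 had 57366 and 56878 in WT and 64503 and 66066 in KO. Lars2, the mitochondrial leucyl-tRNA synthetase, had the highest count of all, with 75343 and 75894 in WT and 73160.0 and 71976 in KO. It was called lower by a log2 fold change of -0.06. Whether all reads counted for Lars2 came from its own message was not tested. The mitochondrially encoded mt-Co1 was called lower (-0.10), at -0.07 without KO replicate 2, and was not called by DESeq2. Actb had 29413 and 29628 in WT and 29519.5 and 29379 in KO, with overlapping groups and an adjusted p of 0.822. Hsp90ab1 had a log2 fold change of 0.01 (adjusted p = 0.265, but called by edgeR), and Gapdh one of 0.05, which was not called without WT replicate 1.

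Gene classes were described with 35 lists drawn up apart from the stress response and ribosome lists. They held 1364 tested genes, of which 244 were called higher and 314 lower. A few members, such as Pck2 and Ddr2, are also on the stress response lists and were not removed. More members were lower than higher in 23 lists and the reverse in 11. Each list is given by counts, read against 17.9% higher and 18.6% lower among all genes, and by its median log2 fold change, read against 0.00. Calls were more frequent among well-covered genes, at 23.2% higher and 25.7% lower. Some lists were nearly all well-covered, such as the spliceosome list with 77 of 78 tested members. Calls also followed gene span, as described below. No test was made of a list as a whole. Of the 46 list counts of at least 5, 35 moved by more than 1.5 times with DESeq2.

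**Figure D3:**
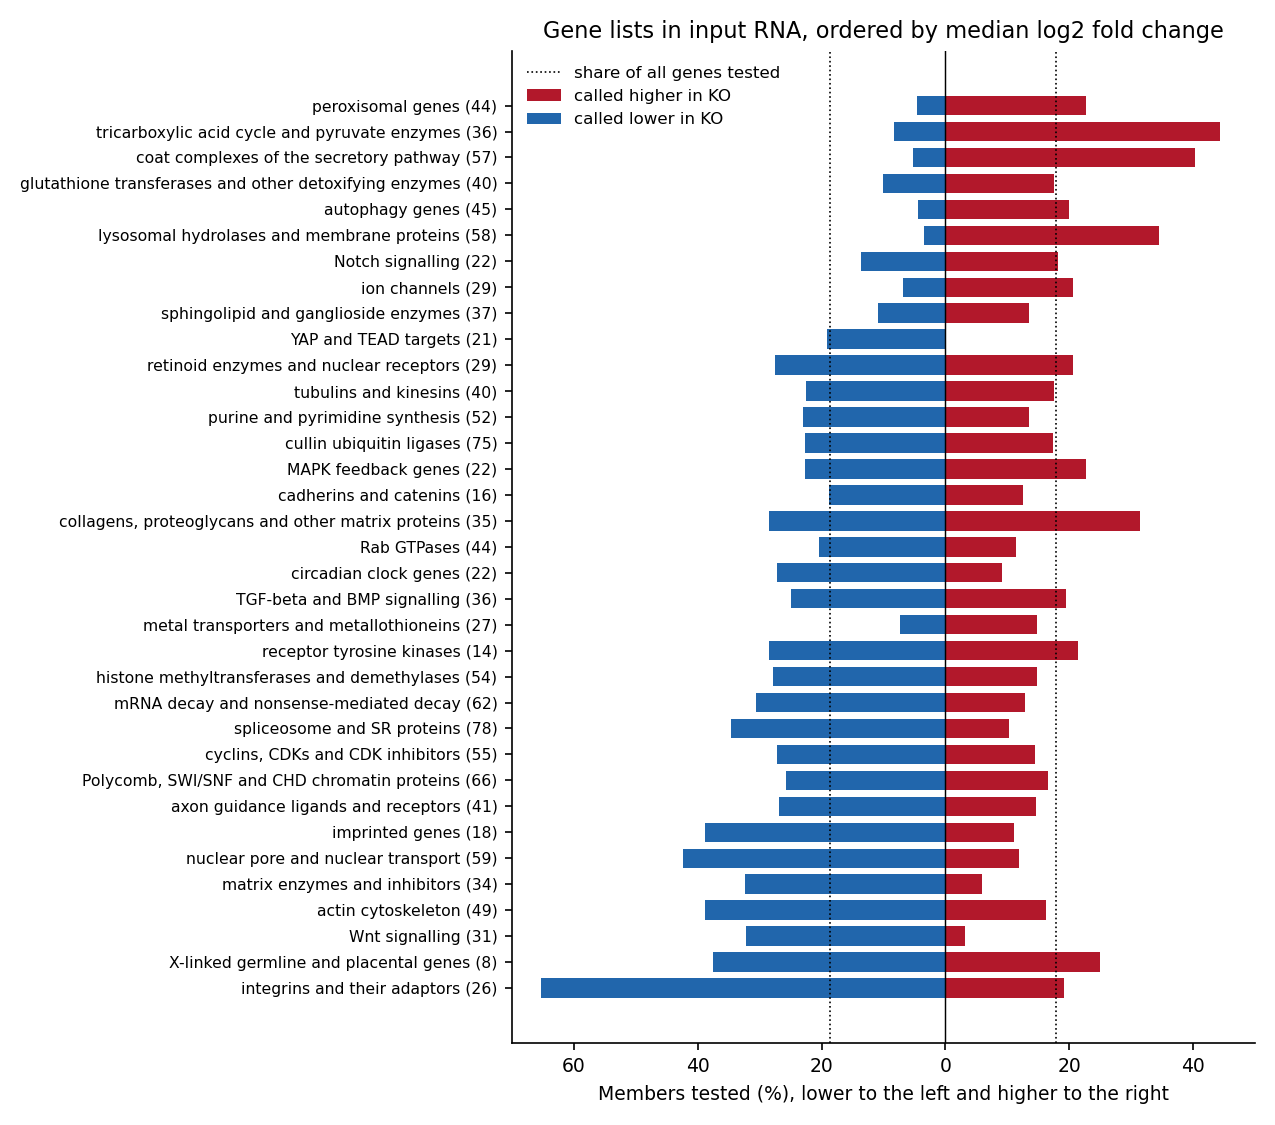
Share of the tested members of each of 35 gene lists called higher in KO (red, to the right) and lower (blue, to the left), in percent, with the number of members tested in brackets. Lists are ordered by median log2 fold change, and dotted lines mark the shares of all genes tested, 17.9% and 18.6%. Tricarboxylic acid cycle, coat complex and lysosomal lists reach past the right line, and integrins reach farthest past the left line at 65.4%.

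Integrins, actin cytoskeleton genes and matrix enzymes had larger shares called lower than the 18.6% of all genes. Of 26 integrins and adaptors, which tie the matrix to actin, 17 were called lower and 5 higher, with a median log2 fold change of -0.16. Itgb1, the beta subunit shared by many integrins, had 2604 and 2617 in WT and 2366 and 2339 in KO, with both KO libraries below both WT libraries (log2 fold change -0.15 ± 0.021 (SE), adjusted p = 2.87e-07). Itga2, a collagen-binding subunit, had few reads, with 9.58 and 8.21 in WT and 1.84 and 1.17 in KO, and a log2 fold change of -1.99. The adaptor Lims2 went the other way, with 83.8 and 65.7 in WT and 137 and 134 in KO, at 0.86, and talin, Tln1, had 0.01 and did not pass (adjusted p = 0.843). Of 49 actin cytoskeleton genes 19 were lower and 8 higher, with a median of -0.08. They included Myh9, the heavy chain of nonmuscle myosin, at -0.08, and Arpc3, of the Arp2/3 complex, at 0.30. Of 34 matrix enzymes and inhibitors 11 were lower and 2 higher, among them Timp3, an inhibitor of metalloproteinases, with 223 and 206 in WT and 144 and 137 in KO and a log2 fold change of -0.61. Collagens and other matrix proteins were split, with 11 of 35 higher and 10 lower, and included Postn, or periostin, at -1.03 and Bcan, the proteoglycan brevican, at 1.48. Cadherins and catenins had 3 of 16 lower, near the share of all genes, and 2 higher, with a median of -0.00.

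Wnt and axon guidance genes leaned lower, and other signalling lists were split or lay near the shares of all genes. Of 31 Wnt genes 10 were lower and 1 higher, with a median of -0.09. Lrp6, a coreceptor for Wnt, had 1630.0 and 1662 in WT and 1352 and 1355 in KO, a log2 fold change of -0.28 ± 0.026 (SE), adjusted p = 9.39e-12, and Dkk3, a secreted member of the Dickkopf family, had 132 and 155 in WT and 70.5 and 63.3 in KO, at -1.09. Lgr4, a receptor for R-spondins, and Tcf7l1, a transcription factor of the pathway, were at -0.42 and -0.44. Of 41 axon guidance genes 11 were lower and 6 higher, with the semaphorins Sema3c at -1.22 and Sema6a at -0.78. TGF-beta and BMP signalling had 9 of 36 lower and 7 higher. Among its 16 well-covered members 3 were lower, below the 25.7% of all well-covered genes, and 3 higher. At the ends of this list stood Id3, named above, and Tmeff1, a transmembrane protein with follistatin domains. Tmeff1 had 11.2 and 10.6 in WT and 1.23 and 1.56 in KO and a log2 fold change of -2.32. Erbb3, a receptor of neuregulin, was among 4 of 14 receptor tyrosine kinases called lower, at -0.40, while Met, the receptor of hepatocyte growth factor, was among 3 called higher, at 0.10. YAP and TEAD targets had 4 of 21 lower and 0 higher, Notch signalling 3 of 22 lower and 4 higher, and MAPK feedback genes 5 of 22 in each direction, each with a median of at most 0.05.

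Genes of the secretory pathway, lysosome and mitochondrial metabolism were more often higher. Of 57 coat complex genes, which shape transport vesicles, 23 were called higher and 3 lower, with a median of 0.08. Sec24d, a cargo adaptor of COPII, had 336 and 340.4 in WT and 456 and 466 in KO, a log2 fold change of 0.44 ± 0.045 (SE), adjusted p = 2.12e-10, and Copz2, a COPI subunit, was at 0.49. Arf1, the GTPase that recruits COPI, was at 0.10, and Copg1, another subunit, had 0.04 and did not pass (adjusted p = 0.116). Of 58 lysosomal genes 20 were higher and 2 lower, with a median of 0.06. They included Smpd1, an acid sphingomyelinase, with 225 and 202 in WT and 292 and 274 in KO, at 0.41, and Lamp1, a membrane protein of lysosomes, at 0.10. Of 45 autophagy genes 9 were higher, near the share of all genes, and 2 lower, the latter being the autophagy receptors Sqstm1 at -0.10 and Tax1bp1 at -0.15.

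Of 36 genes of the tricarboxylic acid cycle and pyruvate metabolism 16 were higher and 3 lower, with a median of 0.09. Idh2, the mitochondrial isocitrate dehydrogenase, had 1316 and 1303 in WT and 1575 and 1636 in KO, a log2 fold change of 0.29 ± 0.026 (SE), adjusted p = 8e-12. Pck2, the mitochondrial phosphoenolpyruvate carboxykinase, is also a member of the stress response lists. Pck2 had 122 and 119 in WT and 261 and 253 in KO, 2.13-fold (log2 fold change 1.09 ± 0.069 (SE), adjusted p = 3.57e-16). In both the KO libraries lay above the WT libraries. Acly, which makes acetyl-CoA in the cytosol, was called lower at -0.09. Of 44 peroxisomal genes 10 were higher and 2 lower, with a median of 0.10, among them Acaa1a, a thiolase, at 0.28, while Agps, of ether lipid synthesis, was lower at -0.25. Detoxifying enzymes had 7 of 40 higher and 4 lower, near the share of all genes called higher. Of 27 metal transporters and metallothioneins 4 were higher and 2 lower, but 2 of the 4 were Mt1 and Mt2. The transferrin receptor Tfrc was lower, with 2723 and 2738 in WT and 2326 and 2401 in KO, at -0.21. Ion channels (6 of 29 higher, 2 lower) and sphingolipid enzymes (5 of 37 higher, 4 lower) lay near the shares of all genes called higher or below them.

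Nuclear lists leaned lower. Of 59 genes of the nuclear pore and nuclear transport 25 were called lower and 7 higher, with a median of -0.06, and 2 of the 7 were Nup93 and Tnpo2 of the segment. Xpo4, an exportin, had 667 and 702 in WT and 517 and 547 in KO, a log2 fold change of -0.36 ± 0.039 (SE), adjusted p = 7.64e-10. Kpnb1, the main importin beta, had 9092 and 9089 in WT and 8241 and 8410.1 in KO, at -0.13, and the GTPase Ran had -0.01 and did not pass (adjusted p = 0.674). Of 78 spliceosome and SR proteins 27 were lower and 8 higher, with a median of -0.03. Srsf1, an SR protein that defines exons, had 3304 and 3398 in WT and 2744 and 2764 in KO, a log2 fold change of -0.28 ± 0.02 (SE), adjusted p = 1.28e-14, while the core protein Snrpd2 was higher at 0.26. Of 62 genes of mRNA decay 19 were lower and 8 higher, with Lsm5 at -0.31 and its ring partner Lsm4 at 0.26.

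Chromatin regulators followed, with shares called lower nearer to those of all genes. Histone methyltransferases and demethylases are long genes, with a median span of 56.3 kilobases. Outside the segment their median log2 fold change was -0.03, and 0.02 after the subtraction by gene span described below. Polycomb, SWI/SNF and CHD proteins had 17 of 66 lower and 11 higher, 2 of the 11 in the segment, and histone methyltransferases and demethylases 15 of 54 lower and 8 higher, with the demethylase Kdm1b at -0.38. Cyclins and their kinases had 15 of 55 lower and 8 higher. Cdk6, which drives entry into S phase, was lower, with 236 and 257 in WT and 183 and 169 in KO, at -0.48, and Cdk4, its close relative, was higher at 0.12. Of 52 genes of purine and pyrimidine synthesis 12 were lower and 7 higher, with Rrm2b, the ribonucleotide reductase subunit induced by p53, at -0.61. Of 75 cullin ligase genes 17 were lower and 13 higher, with Cul4b at -0.42. Among well-covered members, 9 of 36 genes of purine and pyrimidine synthesis and 16 of 61 cullin ligase genes were lower. So were 16 of 51 Polycomb, SWI/SNF and CHD proteins, 12 of 42 histone methyltransferases and demethylases and 13 of 44 cyclins and their kinases. These shares lay near or a little above the 25.7% of all well-covered genes. The clock genes had 6 of 22 lower and 2 higher.

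Imprinted genes had 7 of 18 lower and 2 higher. Besides Peg10, Mest, a hydrolase-like imprinted gene, had 248 and 253 in WT and 116 and 106 in KO, a drop of 2.26-fold (log2 fold change -1.18 ± 0.072 (SE), adjusted p = 1.5e-16). Both lie on chromosome 6. Capn6, of the list of X-linked germline and placental genes, had 146 and 143 in WT and 59.5 and 48.5 in KO, 2.67-fold lower (log2 fold change -1.42 ± 0.1 (SE), adjusted p = 2e-14). In both genes the 2 KO libraries lay below every WT library. Among Rab GTPases 9 of 44 were lower and 5 higher, and Rab27a, which moves melanosomes, and Rab38, which delivers pigment enzymes to them, were higher at 0.29 and 0.21. Cdh13, a cadherin without a cytoplasmic tail, had 59.1 and 59.9 in WT and 156 and 139 in KO, a log2 fold change of 1.29, and lies on chromosome 8 outside the segment. The retinoid and nuclear receptor list (6 of 29 higher, 8 lower) and the tubulins and kinesins (7 of 40 higher, 9 lower) each had a median of 0.01.

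Beyond the segment, whole chromosomes differed by smaller amounts. Chromosome 6 had the lowest median log2 fold change, -0.10 over 523 genes, with 40.9% called lower and 9.75% higher. Chromosome 7 had the highest, 0.09 over 746 genes, with 30.8% called higher and 7.24% lower. The shift ran along most of each chromosome: in windows of 25 neighbouring genes, all 20 windows of chromosome 6 had a median below 0, and 27 of 29 windows of chromosome 7 had one above 0. Chromosome 15 had a median of 0.06 with 31.6% called higher, and chromosome 8 without the segment had 0.02. In the footprint libraries the median difference was -0.10 for chromosome 6 and 0.04 for chromosome 7. These medians are far below the 0.49 of the segment.

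**Figure D4:**
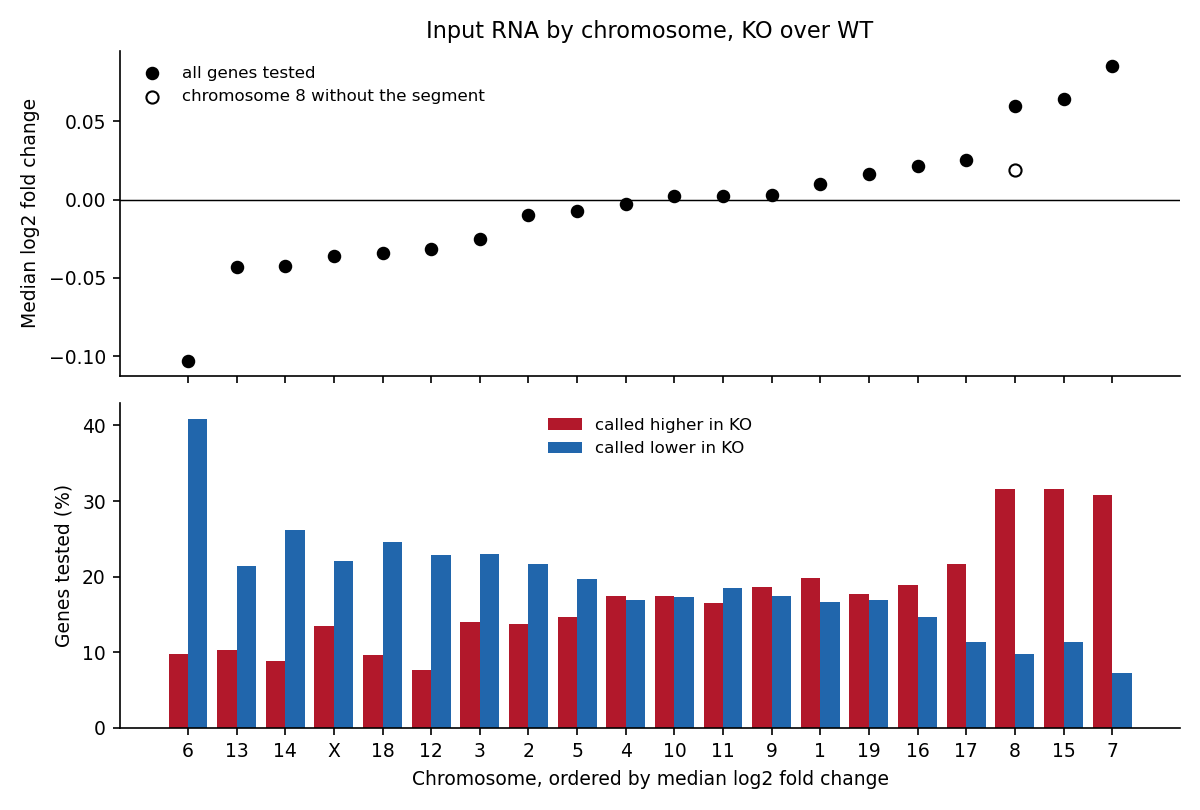
Upper panel, median log2 fold change of input RNA (KO over WT) of the genes tested on each chromosome, with chromosome 8 also drawn without its segment as an open circle. Lower panel, percent of genes tested on each chromosome called higher (red) and lower (blue) in KO. Chromosome 6 lies lowest at -0.10 and chromosome 7 highest at 0.09, and the open circle of chromosome 8 lies at 0.02.

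Of 406 such windows, medians ran from -0.19 to 0.56, with quartiles of -0.05 and 0.05. The highest lay in the segment, from D8Ertd738e to Dhps, with 24 of its 25 genes called higher. The highest window away from the segment, at 0.26, was on chromosome 13 and held 22 histone genes, with 10 genes called higher and 1 lower. Among the lowest was a window on chromosome 6 from Mpp6 to Mindy4, which includes part of the Hoxa cluster, at -0.19, with 13 called lower and 1 higher. No other stretch came near the segment in length: at the same limit of 0.2 there were 15 stretches of at least 5 genes in all, and the next longest had 13 genes. At a limit of 0.3 there was 1, from Scoc to Cnot1, with 102 genes of the segment.

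Shorter genes were more often higher in KO and longer genes more often lower. Span is the distance from the start to the end of a gene in the genome, introns included, from RefSeq. Among 5715 well-covered genes outside the segment, split into 10 groups of equal size by span, the shortest group, with a median span of 4.03 kilobases, had a median log2 fold change of 0.10, with 47.4% called higher and 9.44% lower. The ninth group, with a median span of 92.8 kilobases, had -0.06, with 12.4% called higher and 39.2% lower. The longest group had -0.05, with 14.7% called higher and 36.2% lower. Spearman's rho across genes was -0.30, given as a description, since genes are not independent replicates and share the 4 libraries.

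The relation was seen at all levels of expression and along every chromosome. In 3 groups of equal size, with low, middle and high normalized read counts, rho was -0.29, -0.31 and -0.30, and on the 20 chromosomes it ran from -0.44 on chromosome X to -0.05 on chromosome 12. It was -0.27 in 5329 genes without the stress response, ribosomal protein, translation factor, histone and predicted genes. Mitochondrially encoded genes and genes with symbols starting Nduf, Cox, Atp5 or Uqcr were also left out there. Other nuclear genes of mitochondria stayed in. The level itself had a rho of -0.01 with the log2 fold change, and the percent of G and C in the promoter one of -0.14 over 4609 genes. In footprints the medians ran the other way, from -0.05 in the shortest group to 0.06 in the longest. The segment had a median span of 17.5 kilobases, and its median log2 fold change after subtraction of the median of the same span group was 0.48. The same subtraction left -0.10 for chromosome 6 and 0.08 for chromosome 7. Among gene lists, outside the segment, it took histone methyltransferases and demethylases from a median of -0.03 to 0.02. Axon guidance genes went from -0.04 to 0.00, imprinted genes from -0.04 to 0.01 and TGF-beta and BMP genes from -0.01 to 0.03. Other lists stayed below 0, such as integrins at -0.12, Wnt genes at -0.11 and nuclear pore and transport genes at -0.06.

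**Figure D5:**
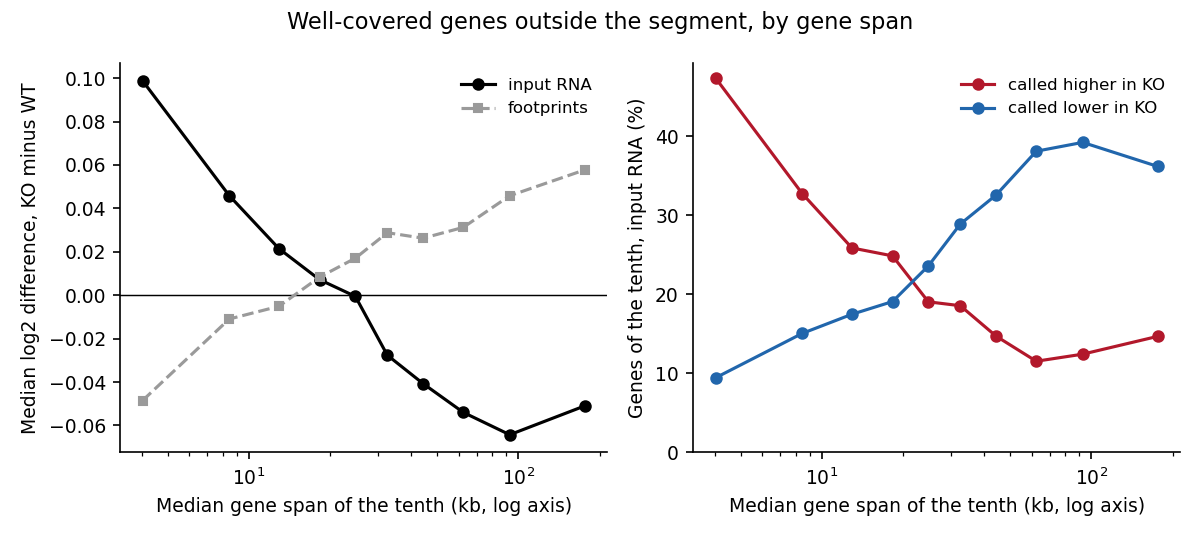
Well-covered genes outside the chromosome 8 segment in 10 equal groups by gene span (kilobases, log axis). Left, median log2 difference, KO minus WT, in input RNA (black circles) and footprints (grey squares), and right, percent of each group called higher (red) and lower (blue) in input RNA. Input medians fall from 0.10 in the shortest group to -0.06 in the ninth, while footprint medians rise from -0.05 to 0.06.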

How the data were processed

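Input RNA was measured in 4 libraries, WT and KO with 2 libraries per group, of 8 in the series. The authors deposited 1 table of normalized read counts per gene, a signal divided by 1 factor per library whose scaling the sources used here do not name. Each value was a whole multiple of what 1 read is worth, in 100% of values within 0.001 of a read, which gave the recovered reads. Per the submitters' processing notes, Bowtie (no version) and mm10 were used. Nothing used here states the counter, the annotation or the strand, and genes that share reads with near-identical copies, overlapping genes or antisense partners are uncertain. Every listed gene has at least 1 read in each library.

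limma 3.58.1 with a trend (R 4.3.3) was fitted to log2(value + 1) for genes with a mean of at least 1. Fold changes on that scale understate the change of low genes. Two-sided p-values were adjusted by Benjamini-Hochberg over all 10443 genes, with a threshold of 0.05. On simulated data with 10440 genes the test recovered 100% of 1.5-fold and of 2-fold changes, with 10 false calls. The changed genes there were few and all well-covered, and the simulated spread was estimated from these same libraries. The simulation therefore does not cover genes with few reads, smaller changes, or data in which as many genes differ as here. Groups of 2 against 2 have no permutation test below the threshold, so single values rest on the fit. Genes were placed by RefSeq GRCm38.p6, the same build as mm10, which held 10415 of the table's genes, and 16 symbols turned into dates by a spreadsheet were restored. Of sample columns, 0 were unmapped.

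The named genes were the 15 largest and 15 smallest log2 fold changes among well-covered, called, non-overlapping genes outside the stress response, ribosomal, mitochondrially encoded, histone and predicted genes, the 10 highest mean counts, up to 5 members of each list, the extreme windows, and Mettl5. Melanoma markers, the members and edges of the chromosome 8 segment other than those, the Id and Nr4a relatives and Slc30a1 were named after their values were seen, and so was the segment itself. Some items under this rule are not reported here. The gene set and all lists were chosen with earlier results of these data known. The alternatives were other pseudocounts, filters, scalings and fits, a replicate block, edgeR 4.0.16, DESeq2 1.42.0, voom and leaving out each library.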

Additional observations from a re-analysis of the deposited data

How the results depend on the processing

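The count of genes called, 3803, stayed within 1.5 times under other pseudocounts, filters and scalings, with voom weights and with edgeR (3782). It was 1276 without the trend, 829 with all 8 libraries fitted together and 1723 with DESeq2. Well-covered genes called, 2841, became 779, 752 and 1484 under the same 3 fits and 1661 with a minimum of 500 for well-covered. Those also over 1.5-fold, 35, became 87 with a minimum of 50 and 17 with a minimum of 500. List members called, 558, became 187, 162 and 301 under the 3 fits. The cause was not tested. The segment's 98 genes called higher ranged from 68 (all 8 libraries) to 99. Leaving out 1 library each gave 2858 to 3444 genes called, 2261 to 2525 well-covered genes, 36 to 39 over 1.5-fold, 436 to 507 list members and 95 to 98 segment genes. A lone library was then assumed to vary like the other group. A replicate block gave 3877 genes called. Same-numbered libraries did not deviate together (correlation -0.031 over all genes and -0.045 over well-covered genes). Whether they were prepared together cannot be told from this.

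Of 246 named genes, 0 reversed direction with a call. Calls were lost for 75 without the trend, 88 with all 8 libraries, 40 with DESeq2 and between 12 and 17 when a library was left out. Of 46 list counts of at least 5, 43, 46 and 35 moved by more than 1.5 times under the 3 fits, between 3 and 11 with a library left out, and 0 without the chromosome 8 segment, an alternative chosen after seeing the data like the limit of 0.3 and the subtraction by gene span. The share of calls that were higher stayed between 47.0% and 53.4%.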

Other observations

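Besides the chromosome 8 segment, shorter runs of neighbouring genes stood together in input RNA, found after the data were seen and given as values. On chromosome 10, all 8 genes from Os9 to Mars were called higher, with a median log2 fold change of 0.24 and a median log2 footprint difference of 0.12. Its end genes, Os9 and Mars, are members of the stress response lists. On chromosome 6, 8 of the 10 genes from Mpp6 to Hoxa10 were called lower and 0 higher, with a median of -0.31, and the footprint median was -0.22. Also on chromosome 6, 9 of 12 genes from Ppfibp1 to Bicd1 were called lower and 1 higher, with a median of -0.25 in input and -0.04 in footprints. On chromosome 14, 5 of 6 genes from Mzt1 to Klf12 were called lower, with medians of -0.28 in input and -0.33 in footprints. In all, 10 such runs of at least 5 genes were lower and 4 higher, and 4 of the lower ones lay on chromosome 6.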
